A study of Rattus norvegicus with 20 samples.

Results

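Galectin-3 (Lgals3) and 6 genes of the lysosome (Cd68, Cd63, Lamp2, Ctss, Ctsh and Gusb) were followed in brain tissue of 10 female rats. Each had undergone controlled cortical impact, in which a piston strikes the brain through the opened skull to model traumatic brain injury. They are 7 of the 770 gene probes of the panel, picked by name because their counts were known to differ between the injured and the opposite hemisphere. Their hemisphere differences are therefore given as a description, without p-values. Each rat gave 1 library from the injured (ipsilateral) and 1 from the opposite (contralateral) hemisphere, so 20 libraries form 10 pairs. All animals were injured. Some received intranasal human neural stem cells (a line made to grow by L-myc) and others the vehicle, and the labels do not say which, so the treatments were not compared. Strain, age and time after injury are not given in the sources used here.

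Lysosomes are acid compartments in which phagocytes such as microglia and macrophages break down what they have taken up. Their membrane carries heavily glycosylated proteins (LAMP-2, CD68, CD63) and their lumen holds hydrolases (cathepsins S and H, beta-glucuronidase). Galectin-3 is a sugar-binding protein of activated microglia and macrophages that gathers on damaged lysosomes. After brain injury, phagocytes clear myelin and dead cells around the lesion.

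RNA was counted on the NanoString nCounter, which images colour-coded probes hybridised to unamplified RNA. Totals over the 770 gene probes ran from 34454 to 319964 per library. The 8 negative controls (probes without a target) averaged 5.28 counts with a highest count of 18. A scaled count is the raw count divided by a library factor (0.274 to 4.34) from the geometric mean of 16 housekeeping genes, with Gusb, which stands in the housekeeping block, left out. None of the 770 probe accessions (0) was found among the rat RefSeq transcripts, while 705 of the 770 symbols were, and symbols such as G6pdx and Tubb5 are those of mouse genes. How well each probe binds the rat transcript was not tested, so no gene's level is set against that of another. The libraries of each hemisphere formed a counting set of their own, so set and hemisphere cannot be told apart. Positive control counts were 1.46-fold higher in the ipsilateral set.

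Upstream sequence was at hand for 6 of the 7 genes from RefSeq (build GRCr8), and 3 of the 6 hold a searched motif within 250 bases before the gene start. These 3 windows are shown so that the matches can be read in place. Those of Lamp2, Ctsh and Gusb held none. The motifs were CACGTG (the E-box core bound by the lysosomal regulator TFEB, among others), the full palindromic CLEAR element of lysosomal genes, which contains the E-box, TGAGTCA or TGACTCA (AP-1) and GAGGAAGT (the site of the myeloid factor PU.1), searched on both strands. Capitals mark every match.
Cd68, chr10:54882442-54882691, minus strand: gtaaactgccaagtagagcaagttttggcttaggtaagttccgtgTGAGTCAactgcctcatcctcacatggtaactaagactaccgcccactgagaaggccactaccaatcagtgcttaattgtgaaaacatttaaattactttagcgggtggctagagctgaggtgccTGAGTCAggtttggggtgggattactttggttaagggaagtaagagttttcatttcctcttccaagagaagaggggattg
Cd63, chr7:1921894-1922143, plus strand: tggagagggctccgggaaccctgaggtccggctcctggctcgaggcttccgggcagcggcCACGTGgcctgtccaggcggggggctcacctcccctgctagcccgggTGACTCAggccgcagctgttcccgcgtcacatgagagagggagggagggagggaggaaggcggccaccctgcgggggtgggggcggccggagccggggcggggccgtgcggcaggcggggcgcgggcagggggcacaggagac
Ctss, chr2:185775146-185775395, plus strand: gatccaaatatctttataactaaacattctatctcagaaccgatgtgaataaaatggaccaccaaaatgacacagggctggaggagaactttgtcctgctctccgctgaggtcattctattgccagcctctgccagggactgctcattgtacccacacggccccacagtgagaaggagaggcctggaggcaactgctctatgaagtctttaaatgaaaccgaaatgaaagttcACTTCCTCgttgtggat
Counted from the gene start, Cd68 holds AP-1 letters at -205 to -199 and at -80 to -74. Cd63 holds the E-box at -190 to -185 and AP-1 letters at -143 to -137. Ctss holds the PU.1 letters on the minus strand at -17 to -10. Of 27457 rat promoters, 3.98% hold the AP-1 letters in these 250 bases, 5.79% the E-box, 2.04% the PU.1 letters and 0.240% the full CLEAR element, which none of the 6 windows held. A match describes the letters only.

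Galectin-3 showed the widest hemisphere difference of the 7 genes. Lgals3 ran from 19.99 (animal 5) over a median of 356 to 860 scaled counts (animal 8) ipsilaterally, and from 8.94 (animal 10) over 19.8 to 40.6 (animal 4) contralaterally. The injured side was higher in 10 of 10 animals, and 7 of the 10 ipsilateral libraries lay above every contralateral one. Those of animals 3, 5 and 10, at 23.0, 19.99 and 20.3 scaled counts, lay within the contralateral range. The ratio of the hemispheres (after adding 1 to each scaled count) ran from 1.26-fold in animal 3 to 45.1-fold in animal 7. The fit with the animal as a block gave 12.6-fold (log2 fold change 3.66 ± 0.50 SE, edgeR, n = 10 pairs). Contralateral raw counts were low, from 4 to 91, and 9 of 10 exceeded the mean of their library's negative controls by over 2 SD. With the mean negative control count subtracted, the log2 fold change of Lgals3 was 4.08.

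The lysosomal membrane proteins differed from each other in size. Cd68, the macrophage member of the LAMP family, ran from 16.4 (animal 3) over 165 to 316 scaled counts (animal 7) ipsilaterally and from 8.94 (animal 10) over 18.2 to 28.1 (animal 6) contralaterally. It was higher on the injured side in 10 of 10 animals by scaled and in 9 by raw counts, with a fit of 6.60-fold (log2 fold change 2.72 ± 0.38 SE). Ipsilateral Cd68 of animals 3, 5 and 10 (16.4, 19.99 and 23.3 scaled counts) again fell within the contralateral range, and the other 7 lay above it. Cd68 in the contralateral library of animal 10 rested on 4 raw counts, and background subtraction gave a log2 fold change of 3.10.

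Cd63, a tetraspanin of late endosomes, lysosomes and exosomes, ran from 638 (animal 3) over 1807 to 2827 scaled counts (animal 6) ipsilaterally and from 575 (animal 5) over 668 to 811 (animal 11) contralaterally. The injured side was higher in 9 of 10 animals by scaled and in 8 by raw counts, with 638 against 651 scaled counts in animal 3. The fit gave 2.27-fold (log2 fold change 1.18 ± 0.22 SE). For Cd63, Lamp2, Ctss and Ctsh too, 7 ipsilateral libraries lay above every contralateral one and animals 3, 5 and 10 did not. Cd63 was well counted, with raw counts of at least 258 in every library. Lamp2, a structural protein of the lysosomal membrane that also serves autophagy, ran from 257 (animal 5) over 431 to 710 scaled counts (animal 7) ipsilaterally and from 243 (animal 12) over 278 to 326 (animal 2) contralaterally. Its fit gave 1.48-fold (log2 fold change 0.57 ± 0.14 SE), and animal 5 was lower on the injured side (257 against 284 scaled counts). Raw counts of Lamp2 were higher on the injured side in 5 of 10 animals, so its direction rests on the scaling. The log2 fold change of Lamp2 was 0.22 with TMM scaling and 0.05 with median centring of the libraries. The medians over all fitted genes were 0.38, 0.028 and -0.14 under housekeeping scaling, TMM and median centring.

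**Figure D1:**
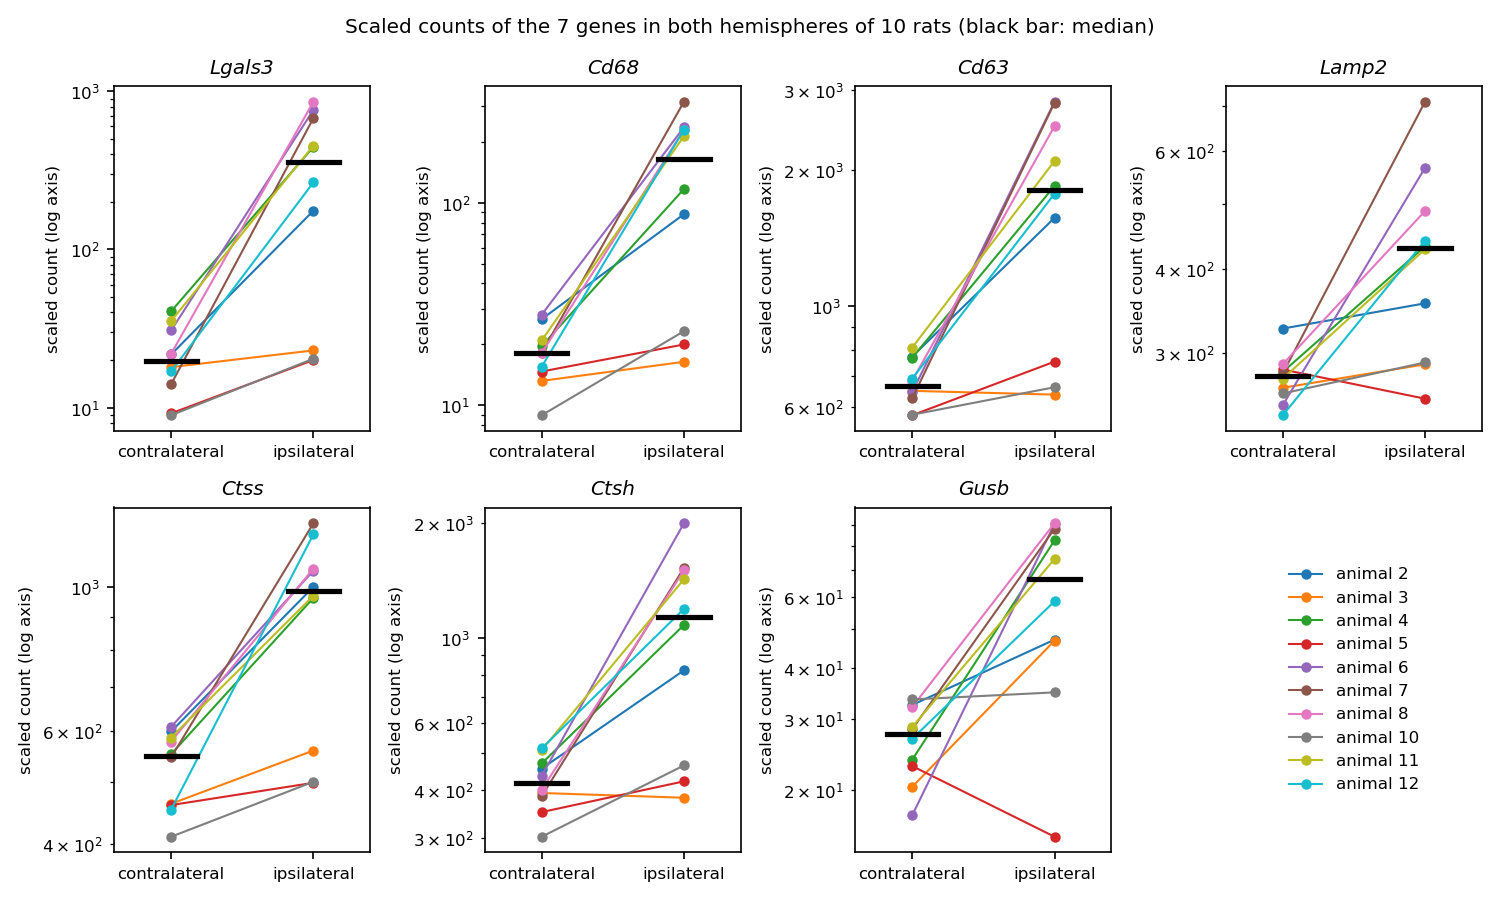
Scaled counts (log axis) of the 7 genes in the contralateral and ipsilateral library of each of 10 rats, joined by a line per animal, with black bars at the medians. In 6 of the 7 panels the ipsilateral libraries of animals 3, 5 and 10 lie within the contralateral range. In the Gusb panel animal 5 lies below it and the other 9 above it.

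The 3 lysosomal enzymes were also higher on the injured side with housekeeping scaling. Ctss (cathepsin S, a cysteine protease that trims the invariant chain of class II molecules in antigen-presenting cells) ran from 498 (animal 5) over 985 to 1255 scaled counts (animal 7) ipsilaterally and from 411 (animal 10) over 549 to 608 (animal 6) contralaterally. Ipsilateral Ctss fell into separate sets, with 3 libraries between 498 and 559 (animals 3, 5 and 10) and 7 between 962 and 1255. The injured side was higher in 10 of 10 animals by scaled but in 6 by raw counts, so the 10 of 10 rests on the scaling. The fit gave 1.66-fold (log2 fold change 0.73 ± 0.12 SE). Median centring lowered the log2 fold change of Ctss to 0.21.

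Ctsh (cathepsin H, a lysosomal aminopeptidase) ran from 382 (animal 3) over 1136 to 1997 scaled counts (animal 6) ipsilaterally and from 302 (animal 10) over 418 to 513 (animal 12) contralaterally. It was higher in 9 of 10 animals by scaled and in 7 by raw counts, with 382 against 393 scaled counts in animal 3. The fit gave 2.27-fold (log2 fold change 1.18 ± 0.21 SE). Gusb, the beta-glucuronidase that degrades glycosaminoglycans and is often used as a reference gene, ran from 15.4 (animal 5) over 66.4 to 91.1 scaled counts (animal 8) ipsilaterally and from 17.4 (animal 6) over 27.6 to 33.5 (animal 10) contralaterally. Its fit gave 2.24-fold (log2 fold change 1.16 ± 0.24 SE), and 9 ipsilateral libraries lay above every contralateral one. Gusb was higher on the injured side in 9 of 10 animals by scaled and in 7 by raw counts.

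Gusb did not order the animals as the other genes did. In animal 3, which had the smallest difference of all animals for Lgals3, Cd68, Cd63 and Ctsh, Gusb stood at 46.8 against 20.4 scaled counts, a 2.23-fold difference. Animal 5 had the smallest difference for Gusb, as it had for Lamp2 and Ctss. There Gusb was lower on the injured side (15.4 against 23.0), on 10 raw counts, which did not exceed the negative controls of that library by 2 SD. Among the 16 housekeeping genes used for scaling, mean differences per animal on the log2 scale lay between -0.38 (Oaz1) and 0.34 (Polr2a), against 1.08 ± 0.85 (SD, n = 10) for Gusb. These 16 set the scaling, so their differences balance out by construction. Edc3, Rpl19 and Tubb5, left out for low counts (raw means of 3.3, 8.4 and 10.4), stood at 0.68, 0.75 and 0.41. With Gusb put back into the scaling its own log2 fold change was 1.09.

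All 7 genes were called higher on the injured side by edgeR at adjusted p under 0.05, where 62.4% of the 194 fitted genes were called, 56.2% as higher and 6.19% as lower (109 and 12 genes). Without the animal as a block 63.9% were called, the 7 among them. All 7 passed the minimum mean raw count of 20, also in the contralateral libraries alone (raw means of 28.1 or more). The lowest of these was Cd68, whose contralateral raw median was 18.5 and scaled mean 18.4, both under 20. Since the 7 were chosen on this contrast, nothing is read from the number of them called. With TMM scaling, where 30.4% were called higher (59 genes) and 24.2% lower (47), 6 of the 7 were called, without Lamp2. With median centring, where 20.6% were higher (40 genes) and 37.1% lower (72), 5 were called, without Lamp2 and Ctss. By log2 fold change the 7 ranked 1 (Lgals3), 3 (Cd68), 28 (Cd63), 29 (Ctsh), 30 (Gusb), 53 (Ctss) and 75 (Lamp2) of the 194 fitted genes. The libraries are of whole tissue, in which more phagocytes, more RNA per phagocyte and a change in other cells cannot be told apart.

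**Figure D2:**
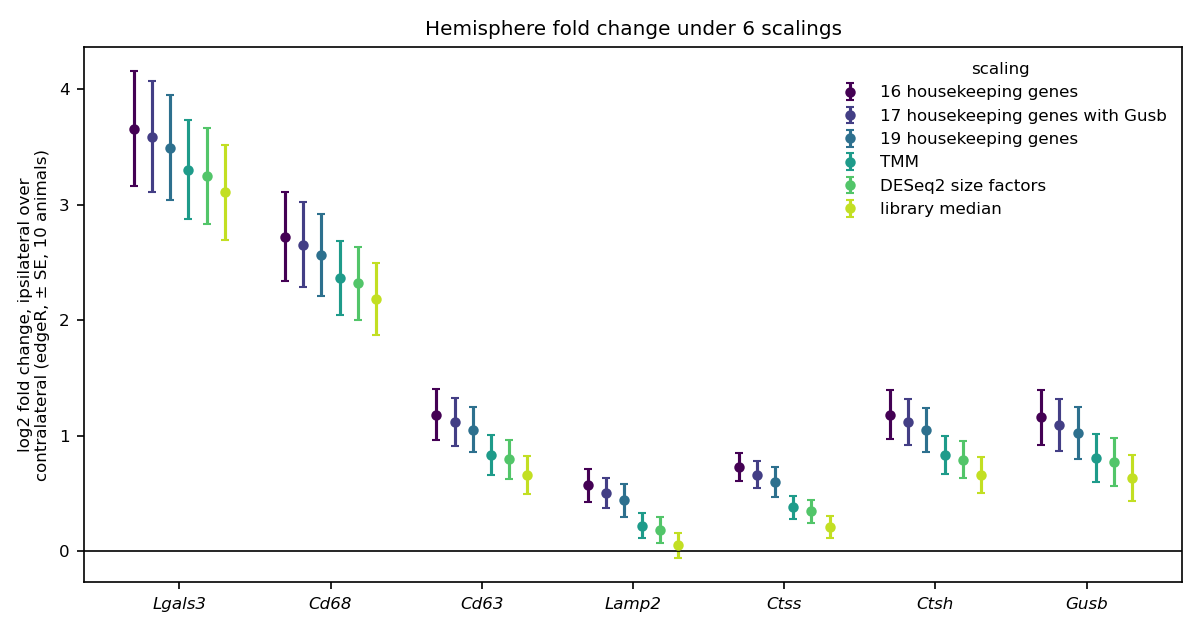
Log2 fold change of ipsilateral over contralateral counts (edgeR, ± SE, 10 pairs) for each of the 7 genes under 6 scalings of the libraries. Lgals3 stays between 3.11 and 3.66 and Cd68 between 2.18 and 2.72, whereas Lamp2 moves from 0.57 to 0.05.

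Differences between the responses of genes within an animal hardly depend on the scaling, since the library factors cancel apart from the added count of 1. The hemisphere difference of Lgals3 on the log2 scale exceeded that of Cd68 in 9 of 10 animals, by 0.78 ± 0.69 (SD, n = 10), with animal 10 as the exception. In animal 10 both genes had 4 contralateral raw counts, under that library's negative control mean of 4.75. Ipsilaterally Lgals3 had 28 and Cd68 32 raw counts there. That of Cd68 exceeded that of Cd63 in 10 of 10 animals, by 1.23 ± 0.77. The difference of Cd63 exceeded that of Lamp2 in 9 of 10 animals, by 0.61 ± 0.40. Cd63 and Ctsh moved nearly alike, with a gap of 0.0037 ± 0.18 between their differences and Cd63 the larger in 6 of 10 animals. Ctss and Lamp2 stood close to each other as well (Lamp2 minus Ctss -0.16 ± 0.29, Lamp2 the larger in 2 of 10 animals).

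Animals 3, 5 and 10 had the 3 smallest hemisphere differences for Lgals3, Cd68, Cd63, Ctss and Ctsh, while ranks varied more elsewhere (animal 12 from 4 for Gusb to 10 for Ctss). Averaged over the 7 genes, ranks of the hemisphere difference (1 for the smallest, 10 for the largest) were 1.71 for animal 5, 1.86 for animal 3, 2.86 for animal 10 and 3.86 for animal 2, and rose to 8.29 for animal 6 and 9.43 for animal 7. The spread between animals was wider on the injured side for each gene. On the log2 scale the SD over 10 libraries was 2.22 ipsilaterally against 0.71 contralaterally for Lgals3, and 1.64 against 0.46 for Cd68. For Cd63 it was 0.85 against 0.17, and for Lamp2 0.46 against 0.12.

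**Figure D3:**
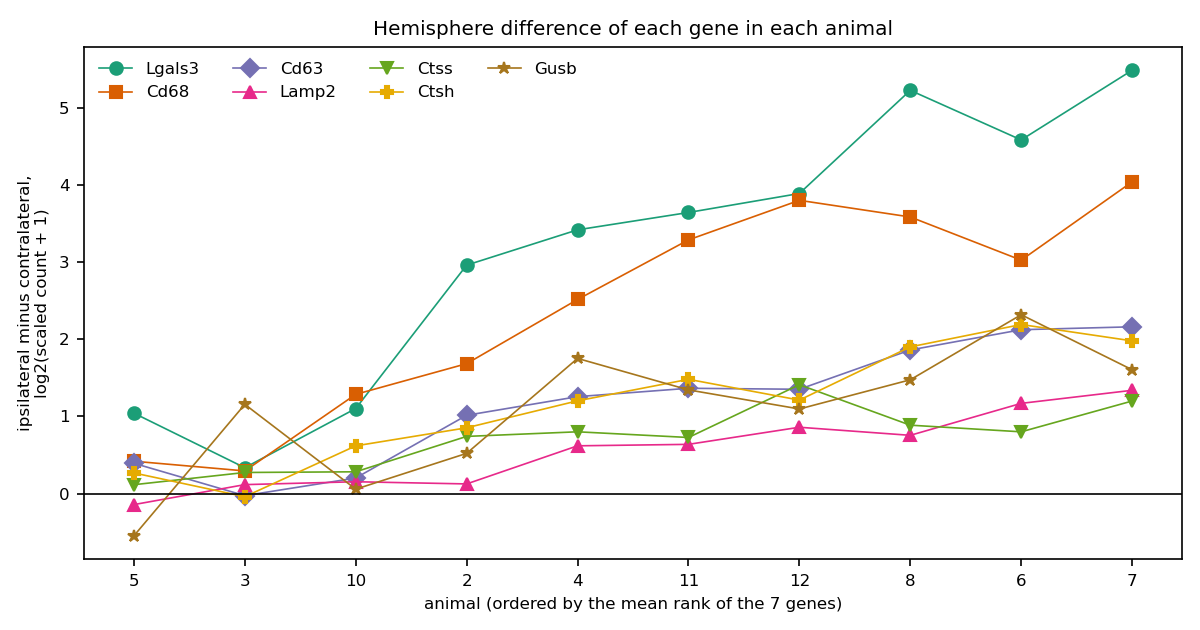
Ipsilateral minus contralateral level of each gene, as log2(scaled count + 1), in each of 10 animals ordered by the mean rank of the 7 genes. Lgals3 spans 0.33 (animal 3) to 5.496 (animal 7). Gusb departs from the common order in animal 3 at 1.16 and is lowest in animal 5 at -0.55.

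Levels on the uninjured side did not enter the choice of the genes by themselves. Their correlations describe whether the genes also vary together away from the lesion. Correlations between other fitted genes were not tested on this side. How common close correlations are on the panel is therefore not known. The passing pairs are not read as a trait of these genes. Over the 10 contralateral libraries, Cd68 and Ctss were correlated most closely of the 21 pairs of genes (Pearson r = 0.93, adjusted permutation p = 0.00063; Spearman rho = 0.92, adjusted permutation p = 0.00924). Without the 2 libraries farthest from the median of Cd68, r was 0.88. Cd63 and Ctsh followed (r = 0.85, adjusted permutation p = 0.0231; rho = 0.87, adjusted permutation p = 0.0245; r = 0.79 without the 2 farthest). Lgals3 correlated with Cd63 (r = 0.83, adjusted permutation p = 0.0234) and with Ctsh (r = 0.78, adjusted permutation p = 0.0410). Spearman's rho for these pairs was 0.75 and 0.70 and did not pass (adjusted permutation p = 0.0901 and 0.106), and r was 0.65 and 0.48 without the 2 farthest libraries. The other 17 pairs did not pass, among them all 6 with Gusb (r from -0.26 to 0.45) and all 6 with Lamp2.

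Libraries of a hemisphere share their scaling factor between genes, and the contralateral r of the log2 level with the log2 factor was 0.36 for Cd68, 0.53 for Ctss, 0.23 for Cd63 and 0.18 for Ctsh. With TMM scaling 2 pairs passed, Cd68 with Ctss (r = 0.90, adjusted permutation p = 0.00378) and Cd63 with Ctsh (r = 0.85, adjusted permutation p = 0.0199). With median centring 0 of 21 passed after adjustment, with r = 0.80 for Cd68 and Ctss and 0.77 for Cd63 and Ctsh. The contralateral library of animal 10 had the fewest counts and only 4 raw counts of Cd68 and of Lgals3. Without animal 10 the remaining Ctss values split, and r for Cd68 with Ctss was 0.84 within 6 libraries (adjusted exact permutation p = 0.306). Over all 9 remaining libraries it was 0.89 (adjusted exact permutation p = 0.0207). For Cd63 with Ctsh r was 0.82 (n = 9, adjusted exact permutation p = 0.136 with and 0.0910 without the split).

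**Figure D4:**
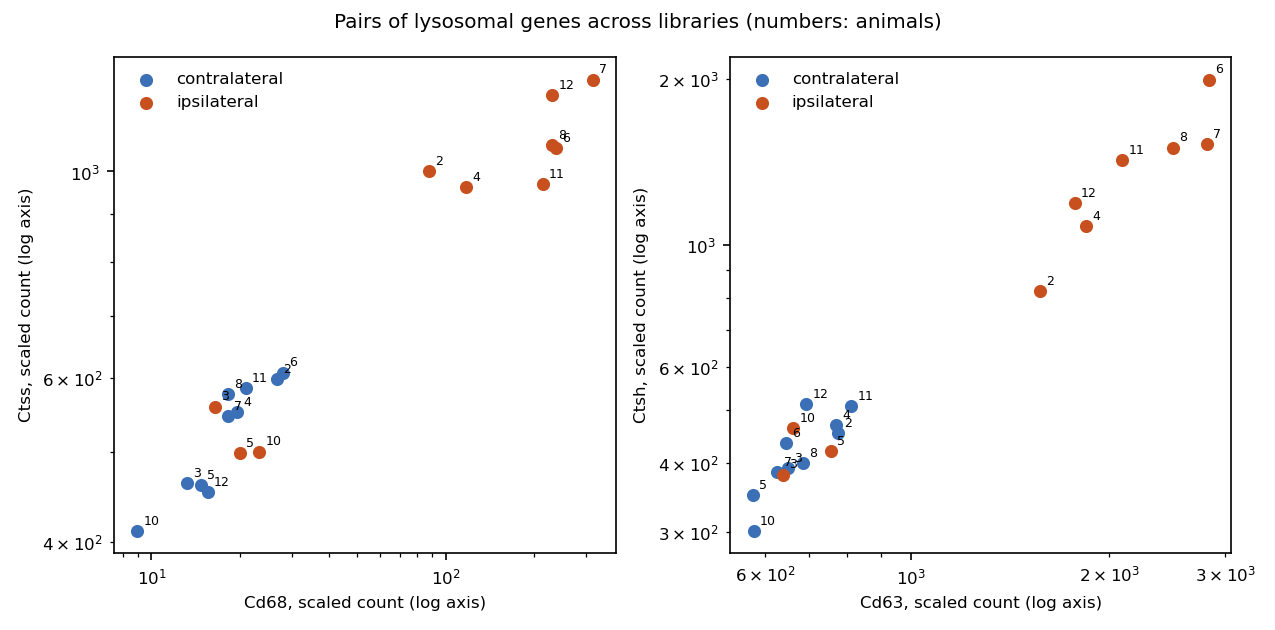
Scaled counts (log axes) of Ctss against Cd68 and of Ctsh against Cd63 in 10 contralateral and 10 ipsilateral libraries, numbered by animal. Within the contralateral libraries Cd68 and Ctss have r = 0.93 and Cd63 and Ctsh r = 0.85, and contralateral animal 10 lies at or near the low end of each axis.

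On the injured side the uneven response was known when the genes were chosen, so these correlations are descriptive. Lgals3 and Ctss each split into 3 low and 7 high libraries, so their r was taken within the 7 (animals 2, 4, 6, 7, 8, 11 and 12). There Lgals3 ran with Gusb (r = 0.97), Cd63 (r = 0.92) and Ctsh (r = 0.87), whereas with Ctss it had r = 0.16. Over all 10 ipsilateral libraries Cd63 and Ctsh had r = 0.98, and Cd68 had r = 0.97 with Cd63 and 0.98 with Ctsh. Animals 3, 5 and 10 form the low end of these relations. No test is read from them.

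Between the hemispheres of an animal, the correlation of a gene's levels passed for 0 of 7 genes after adjustment, and for 1 without it. This was Cd68 (r = 0.64, permutation p = 0.0480, adjusted 0.254; rho = 0.54, permutation p = 0.114, adjusted 0.801; r = 0.60 without the 2 farthest libraries), followed by Ctsh (r = 0.59, permutation p = 0.0727, adjusted 0.254; rho = 0.32, permutation p = 0.367). Ctss had r = -0.60 within its 7 high libraries (exact permutation p = 0.145, adjusted 0.294; rho = -0.46, exact permutation p = 0.302), and the sign turned without the 2 farthest (r = 0.51). Gusb had r = -0.014 and Lamp2 -0.12. Other fitted genes were not tested between the hemispheres, so the 0 of 7 has no background to be set against. The uneven ipsilateral response was known when the genes were chosen, so these p-values are descriptive. With so few animals, a lack of any relation between the hemispheres is not read from the 0 of 7.

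Across the 10 animals, the genes whose hemisphere differences were most like those of Lgals3 were Cd63 (Pearson r = 0.98), the tetraspanin Cd81 (0.98), the chaperone Clu (0.98), the lipid carrier Apoe (0.97) and the cholesterol exporter Abca1 (0.97), out of 193 other fitted genes. Ctsh ranked 7, Cd68 10, Lamp2 35, Ctss 46 and Gusb 77 in this order. Among the genes most like Ctss were Cd68 (r = 0.91), the Fc receptor chain Fcer1g (0.89), the leukocyte antigen Cd7 (0.87) and the complement component C4b (0.86). Lgals3 ranked 8 and Gusb 63. These are descriptions over 10 animals, with no p-value.

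Other genes of the same processes came from 5 lists, chosen with earlier results of these data known. The p-values of their genes are therefore descriptive. Of the lysosomal hydrolases and proteases, 3 of 46 listed genes were on the panel and 1 had counts high enough to fit (mean raw count of at least 20). This was Lyz2, lysozyme of myeloid cells, with a mean of 127 ± 30.0 contralaterally and 536 ± 373 ipsilaterally (scaled counts, SD, n = 10). It rose by a log2 fold change of 1.77 ± 0.35 (SE, edgeR adjusted p = 0.00165). Of the lysosomal membrane and trafficking genes 9 were on the panel and 2 were fitted. Cd81 rose (0.47 ± 0.11 SE, edgeR adjusted p = 0.00323), a call lost with TMM scaling (0.12), while Igf2r, the receptor that carries hydrolases to the lysosome, stood at 0.12 ± 0.14 (SE, edgeR adjusted p = 0.451). With median centring Igf2r was called lower (-0.40, edgeR adjusted p = 0.0359). Lamp1, Lamp3, Cd9 and the regulators Tfeb and Tfe3 averaged no more raw counts than the negative controls. Whether these genes were scarce or their probes bound the rat transcript poorly was not tested.

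Of the phagocytic and scavenger receptors and their partners, 26 of 43 were on the panel and 6 were fitted. By log2 fold change 4 of the 6 rose with housekeeping scaling: Fcer1g (1.42 ± 0.25 SE, edgeR adjusted p = 0.00101), the mannose receptor Mrc1 (1.39 ± 0.34 SE, edgeR adjusted p = 0.0044), the complement receptor C3ar1 (1.11 ± 0.27 SE, edgeR adjusted p = 0.00449) and the endocytic receptor Lrp1 (0.27 ± 0.08 SE, edgeR adjusted p = 0.00987). The sign of Lrp1 turned with TMM scaling (-0.072) and with median centring (-0.24, edgeR adjusted p = 0.0182). Mertk, a receptor for dying cells, stood at 0.35 ± 0.15 (SE, edgeR adjusted p = 0.0544). Mfge8, a secreted bridge to dying cells, stood at -0.26 ± 0.11 (SE, edgeR adjusted p = 0.0503) and was called lower with TMM scaling (-0.60, edgeR adjusted p = 0.00446).

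Among the lipid genes of phagocytes all 3 fitted rose with housekeeping scaling: Abca1 (1.26 ± 0.23 SE, edgeR adjusted p = 0.00111), Apoe (1.09 ± 0.25 SE, edgeR adjusted p = 0.00342) and Abcg1 (0.29 ± 0.08 SE, edgeR adjusted p = 0.0104), the last with its sign turned under TMM scaling (-0.054). No other galectin of the lists was on the panel. Itgb1, an integrin subunit that galectin-3 binds, rose (0.67 ± 0.13 SE, edgeR adjusted p = 0.00179), a call lost with median centring (0.15, edgeR adjusted p = 0.232). Over the 5 lists 10 of 13 fitted genes rose and 0 fell, beside 56.2% called higher over all fitted genes. Their median log2 fold change was 0.67 against 0.38 over all 194. With TMM scaling 7 rose and 1 fell, and with median centring 6 rose and 3 fell. A gene low on the uninjured side passed the minimum count only if it was high on the injured side. These counts, and the p-values of such genes, therefore favour raised genes. Mrc1 and C3ar1 averaged 15.6 and 14.9 scaled counts contralaterally, against 45.8 and 33.7 ipsilaterally.

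**Figure D5:**
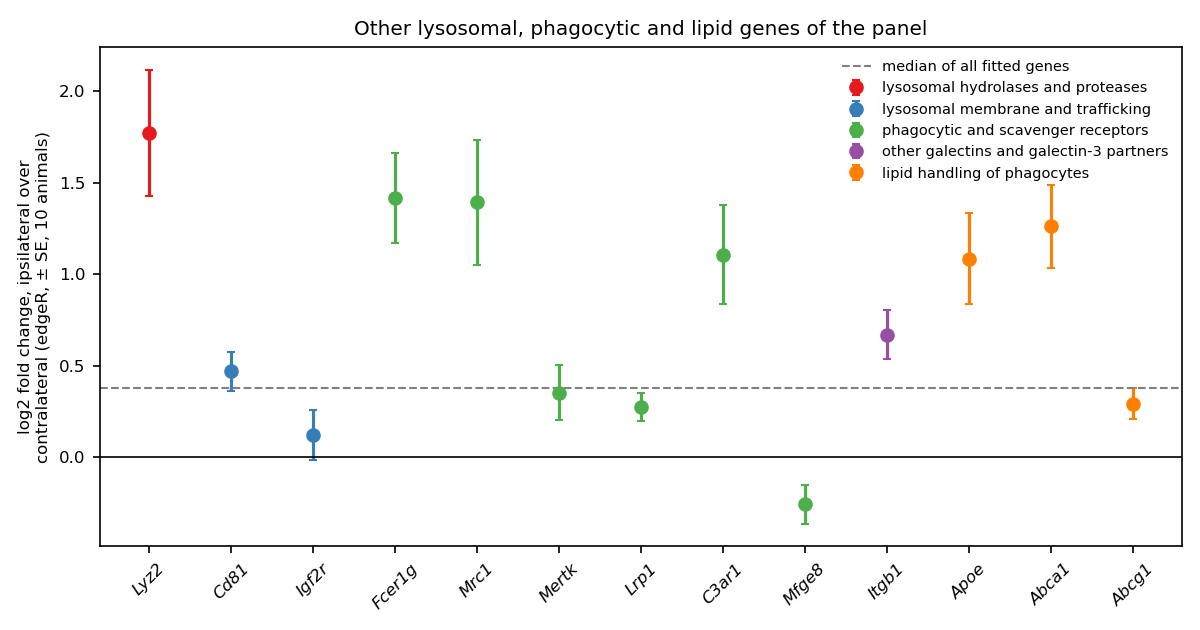
Log2 fold change of ipsilateral over contralateral counts (edgeR with housekeeping scaling, ± SE, 10 pairs) of the 13 other fitted genes, coloured by list, with a dashed line at the median of all fitted genes (0.38). Lyz2 is highest at 1.77 and Mfge8 lowest at -0.26.

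Marker lists of other cell types are given beside the 7 genes as summed scaled counts, without a test. A marker at the level of the negative controls may be scarce or poorly bound by its probe, which was not tested. The summed scaled counts of the monocyte and macrophage markers (13 of 17 on the panel, 5 fitted) ran from 296 to 1770 ipsilaterally and from 254 to 361 contralaterally. They stood at 318, 329 and 296 in the ipsilateral libraries of animals 3, 5 and 10 and at 732 or more in the other 7. Ccr2, Cd163, Msr1 and Ccr1 of this list averaged no more than the negative controls. The microglia markers (6 of 18 on the panel, 0 fitted) summed to 22.2 to 65.6 ipsilaterally and 13.1 to 53.6 contralaterally. Those sums were 0.533 to 1.43 and 0.842 to 1.43 times what 6 probes at the negative control mean would give. Of the microglia markers Cx3cr1, Csf1r, Itgam and C1qb were at or below the negative controls, so that microglia could not be followed by their own markers.

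Neutrophil markers (11 of 15 on the panel, 0 fitted) summed to 43.0 to 175 ipsilaterally and 11.7 to 89.4 contralaterally, with Elane, Csf3r, Lcn2, Mmp9 and Ctsg at or below the negative controls. Those sums were 0.576 to 1.45 and 0.70 to 1.38 times what 11 probes at the negative control mean would give, close to background in both hemispheres. Since binding of the probes was not tested, an absence of neutrophils is not read from this. Markers of fibroblasts and mural cells (7 of 14 on the panel, 5 fitted) ran from 252 to 2889 ipsilaterally against 206 to 373 contralaterally. T and NK cell markers (16 of 19 on the panel, 1 fitted) ran from 102 to 324 against 42.6 to 214. These were 0.967 to 1.85 and 1.15 to 2.03 times what 16 probes at the negative control mean would give, and 8 of the 16 were at or below the negative controls. Of the astrocyte markers Vim and S100b were on the panel, summing to 16.9 to 365 against 15.6 to 32.2, with S100b below the negative controls. Endothelial markers (8 of 11 on the panel, 4 fitted) ran from 182 to 503 against 179 to 315, with Kdr, Vwf and Eng at or below the negative controls. The neuronal genes Nefl, Egr1 and Cyfip2 (3 of 13 on the panel) summed to 1807 to 4559 ipsilaterally against 3400 to 4892 contralaterally, and to 4487, 4034 and 4559 in ipsilateral animals 3, 5 and 10. The part of these cell types in the differences of the 7 genes was not tested.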

How the data were processed

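The matrix deposited by the authors lists whole-number counts by probe for 20 libraries (784 rows: 750 endogenous genes, 20 taken as housekeeping genes because the alphabetical order restarts there, where the design text speaks of 10, 8 negative and 6 positive controls). Per the labels' protocols the authors counted RNA on an nCounter analyzer and handled it in nSolver. The design text describes normalization, but totals differ 9.29-fold and the positive controls 2.09-fold between libraries, so the deposited counts were treated as raw. A second deposited table holds the same counts under another animal number in 20 of 20 columns, with the same 10 pairs. Animals are numbered here by the matrix headers.

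Counts were divided by factors from 16 housekeeping genes averaging 20 or more counts, without Gusb. The 193 endogenous genes at that minimum and Gusb were fitted with edgeR 4.0.16 in R 4.3.3 (quasi-likelihood, animal as a block, two-sided, Benjamini-Hochberg over 194 genes, calls at 0.05). The SE is the log2 fold change divided by the square root of F. The block rests on the sample titles, where both hemispheres carry their animal's number. Within animals, the deviations from the group means correlated from -0.21 to 0.50, above 0.1 in 5 of 10 animals. The contralateral library most like an ipsilateral one was that of the same animal in 2 of 10 animals. Correlations used log2(scaled count + 1), with 100000 permutations or, under 10 values, exact permutation tests, adjusted over 7 genes or 21 pairs. Values of a gene were split where their largest gap exceeded 0.5 of their range, and r was then taken within at least 6 libraries. Within a hemisphere no library repeated another (chi-square per degree of freedom at least 2.21). Scripts were tested on simulated data. The genes and lists were chosen with earlier results of these data known. Named genes are the 7, the fitted genes of 5 lists and the 5 genes most like Lgals3 and Ctss, of which 1 is not reported here. Intervals and p-values cover only the spread between these samples.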

Additional observations from a re-analysis of the deposited data

Results flagged for a closer look

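In the 20 groups of 10 libraries examined (7 genes and 3 library measures in each hemisphere), chance picks out about 1, and 2 were picked out, both for the ipsilateral library of animal 8. Its housekeeping geometric mean was 49.5 counts against a group median of 176, a gap to the next library of 0.535 of the group's log2 range. Its negative control mean was 3 counts against a median of 6 (gap 0.521). None of the 7 genes was picked out in either hemisphere. This library had the highest scaled Lgals3 (860) and Gusb (91.1) of its group, on 236 and 25 raw counts. Without animals 8 and 10, the animals with the lowest housekeeping means of each hemisphere (a choice made after seeing the data), the log2 fold change was 3.51 for Lgals3, 2.66 for Cd68 and 1.24 for Gusb.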

How the results depend on the processing

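Without the replicate block (the animal) 124 genes were called against 121 with it, and the 7 genes kept their direction, with log2 fold changes from 0.63 (Lamp2) to 4.06 (Lgals3). The direction of the 7 genes was the same under every alternative run. Leaving out single animals gave 99 to 132 called genes and 7 of the 7. The lysosomal membrane list, with 1 call, had 0 with TMM, with DESeq2's size factors in edgeR and in DESeq2 itself, and 2 without a count minimum. The phagocytic receptors, with 4 calls, had 2 at a minimum of 50 and 4 to 6 without single animals. Itgb1, the 1 call of the galectin list, gave 0 with median centring. Signs turned for Igf2r with TMM (-0.23), DESeq2's size factors (-0.27), median centring (-0.40), 19 housekeeping genes (-0.010) and DESeq2 (-0.27). They turned for Lrp1 (-0.072, -0.11 and -0.24 with the first 3, -0.11 with DESeq2) and Abcg1 (-0.054, -0.090, -0.23 and -0.091 likewise). Mertk turned with DESeq2's size factors (-0.036), median centring (-0.17) and DESeq2 (-0.039), and Cd81 with median centring (-0.049). The cause of these turns was not tested. Contralateral pairs among the 7 genes past the threshold numbered 4, against 2 with TMM and 0 with median centring. Without single animals they numbered 0 to 7 (0 without animal 10, 1 without animals 4, 5 or 11, 7 without animal 12). Contralateral pairs of other fitted genes were not tested, so these counts have no background to be set against. Taking all libraries where values split (a choice made after seeing the data) left 1 without animal 10. Ipsilateral pairs, a description because their uneven response was known, numbered 13, against 5 with TMM or median centring and 2 to 15 without single animals. The 2 came without animal 2, where Cd68 split as well and 6 libraries remained for most pairs. Without splitting all 21 passed, also with TMM and without any 1 animal, and 10 with median centring, with animals 3, 5 and 10 at the low end. Ipsilateral pairs of other fitted genes were not tested either, and nothing is read from these ipsilateral counts. Low counts limit the contralateral values of Lgals3 and Cd68 and all values of Gusb. They also limit the ipsilateral values of animals 3, 5 and 10, with 28, 13 and 28 raw counts of Lgals3 and 20, 13 and 32 of Cd68.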
